A study of Mus musculus with 8 samples.

Results

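Retinoic acid is a small lipid hormone that cells make from vitamin A (retinol), and 8 genes of its synthesis, sensing and removal were examined in nuclei of the mouse optic nerve (ON). They were *Stra6*, *Rdh10*, *Aldh1a1*, *Aldh1a2*, *Aldh1a3*, *Crabp2*, *Rarb* and *Cyp26b1*, chosen by name out of the 33696 genes counted, and all 8 had at least 1 UMI in named nuclei. The data were single-nucleus RNA-sequencing (snRNA-seq) counts from female mice at P120, and the 4 control libraries, replicates 1 to 4, came from *Piezo2*f/f mice. The other 4, replicates 10 to 13, carry the label cKO, with the genotype *Olig2-cre;Piezo2*f/f. For every library 6 ONs were pooled. Both groups carry the floxed *Piezo2* alleles on a C57BL/6J background. The cKO mice carry in addition a Cre recombinase knocked into the *Olig2* gene, which removes part of *Piezo2* from cells of the *Olig2* lineage and leaves 1 working copy of *Olig2*.

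Cells take up retinol from its carrier protein through the membrane receptor STRA6, RDH10 oxidizes it to retinal, and the dehydrogenases ALDH1A1, ALDH1A2 and ALDH1A3 oxidize retinal to retinoic acid. CRABP2 carries retinoic acid into the nucleus to receptors such as RARB, whose own gene is a classical target of the hormone, and CYP26B1 breaks retinoic acid down. In the central nervous system the meninges, the fibroblast layers that wrap the brain and the ON, are a known source of retinoic acid during development.

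The libraries held between 39628926 and 56541132 UMIs (unique molecular identifiers, each standing for 1 captured transcript), and 37274 nuclei passed all filters, 3487 to 6217 per library, with median depths of 2358 to 3296 UMIs per nucleus. Clusters formed without the 8 genes were named by marker lists, which gave 34204 nuclei of 10 types, and 3070 nuclei stayed unnamed. Libraries shared at most 21 barcodes with each other. The summed level of 6 pituitary hormone genes in fibroblasts was 32.8, 167, 1305 and 55.0 counts-per-million (CPM, a share of all UMIs of these nuclei) in the control libraries and 7.02, 26.7, 3.61 and 3.41 in the libraries labelled cKO, so the groups did not overlap and control replicate 3 stood apart. In oligodendrocytes (OLs) *Piezo2* was not lower in the libraries labelled cKO. Its levels there were 506, 393, 402 and 489 CPM in the control libraries, against 532, 536, 573 and 521 CPM under the cKO label (log2 fold change 0.26 ± 0.11 SE, edgeR quasi-likelihood test, adjusted p = 0.55). A 3′ count per gene need not lie in the deleted part of *Piezo2*, so this value does not check the deletion, and the second group is named by its label throughout.

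*Rarb* was the member of the set with a sequence of the type that retinoic acid receptors bind next to an annotated start. Such elements are direct repeats of a short unit. The units used were AGGTCA, its variant AGTTCA, the further variant GGGTCA, and the variant GGTTCA. They were taken in any combination with 5, 2 or 1 bases between them, on both strands. The search covered up to 1000 bases either side of the annotated starts of protein-coding transcripts in the GRCm39 genome. With 5 bases between the units it matched 1 of the 8 genes, *Rarb*, and 228 of 21581 protein-coding genes (1.06%). With 2 bases it matched 2.49% of the genes and with 1 base 2.31%, and no member was among them. The *Rarb* match lies at chr14:5894234-5894250 on the + strand, 298 to 314 bases after the start at 5893936, inside exon 1 and its 5′ UTR, and is shown with its neighbouring bases because it is the sequence by which the receptor gene is known to answer to the hormone. Capitals mark the repeat units.
Rarb: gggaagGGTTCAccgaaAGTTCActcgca
The match describes the letters only, and the lack of a match elsewhere says only that these letters are not in the windows searched.

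To find out which cells of the ON carry these genes, UMIs of all nuclei of a type were added up within each library and given as CPM. Levels are compared between cell types and not between genes, because 3′ counts from nuclei do not scale with transcript number in the same way for different genes. Tested against the mean of the other types, 7 of the 7 members that could be tested were higher in fibroblasts (edgeR, adjusted p under 0.05 and a log2 fold change over 0.5), where 22.3% of all 11051 genes tested were called higher. *Aldh1a3*, the remaining member, was too rare to be tested. The filter on low counts fixed part of this count, since *Rdh10*, *Stra6*, *Cyp26b1* and *Crabp2* passed it only through fibroblasts and so had to be higher there. The other 3, *Aldh1a1*, *Aldh1a2* and *Rarb*, passed it without fibroblasts as well.

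**Figure D1:**
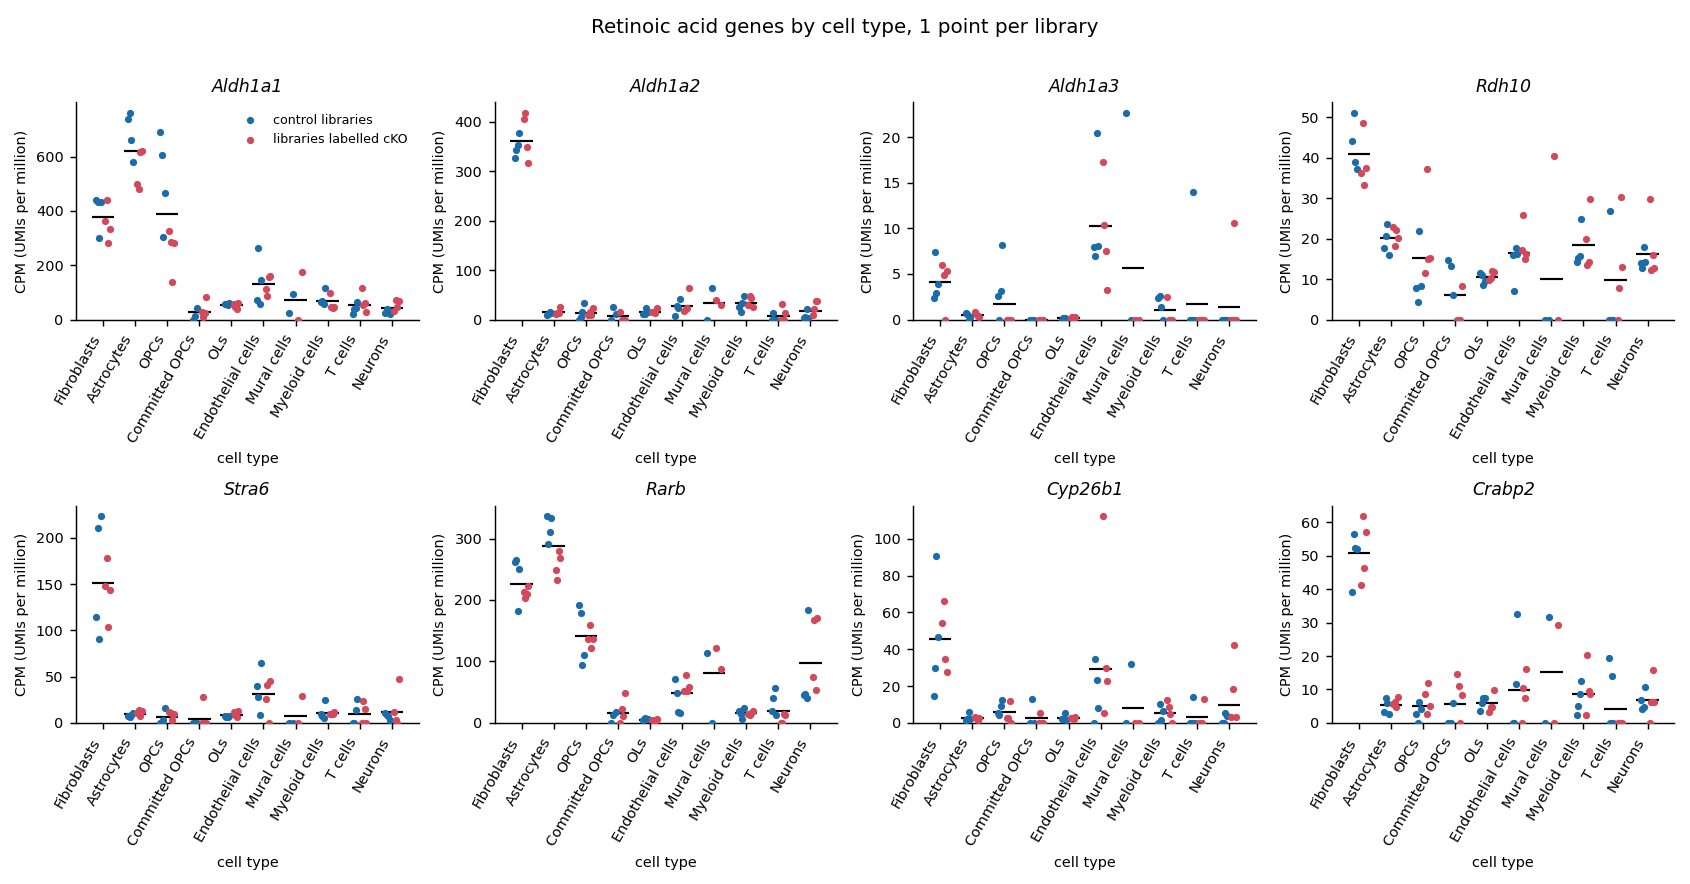
CPM of each gene (vertical axis, from summed nuclei) in 10 cell types, with 1 point per library (blue, control libraries; red, libraries labelled cKO) and a bar at the mean over libraries. *Aldh1a2*, *Stra6* and *Crabp2* stand high in fibroblasts, while *Aldh1a1* and *Rarb* are high in astrocytes, fibroblasts and OPCs.

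Of the synthesis genes, *Aldh1a2* separated fibroblasts from other cells by the largest fold of the set. Its level in fibroblasts was 316 CPM in the lowest library, 351 in the median and 418 in the highest, and no library of any other tested type passed 64.3 CPM, so the types did not overlap. The log2 fold change against the other types was 4.47 ± 0.10 (SE, 8 libraries, edgeR adjusted p = 4.2e-54). Fibroblasts held 72.9% of the *Aldh1a2* UMIs of named nuclei, while they were 8.71% of all filtered nuclei. Myeloid cells, the next type in order, averaged 33.5 ± 11.4 CPM (SD, n = 8), and no step between neighbours from there down to OLs passed the test (adjusted p 0.17 to 0.84). Droplets without a nucleus held 81.2 to 122 CPM of *Aldh1a2* from free RNA, more than any of these other types. Levels below those of free RNA are called background throughout. This limit is cautious, since free RNA was estimated to be only part of the UMIs of a type, so such a level need not be free RNA. The share of nuclei with an *Aldh1a2* UMI was 41.8% in fibroblasts and 4.18% in OLs, at median depths of 2997 and 2600 UMIs. With each nucleus reduced (thinned) at random to 1000 UMIs, the shares became 22.5% and 1.58%.

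*Aldh1a1* had a different distribution, with astrocytes first. Its astrocyte levels were 481 CPM in the lowest, 619 in the median and 761 in the highest library. OPCs followed with 137, 314 and 690, and fibroblasts with 282, 397 and 442. Astrocytes exceeded OPCs by a log2 fold change of 0.59 ± 0.15 (adjusted p = 0.00039), whereas the step from OPCs to fibroblasts did not pass the test (0.21 ± 0.15, adjusted p = 0.24). Fibroblasts in turn stood above endothelial cells, which averaged 132 ± 66.0 CPM (1.59 ± 0.20, adjusted p = 7.9e-11). Free RNA carried 191 to 337 CPM of *Aldh1a1*, so the levels of endothelial cells and of the types below them are within background, and the OPC levels overlap it in some libraries. Astrocytes held 64.1% of the *Aldh1a1* UMIs. Within astrocytes, all 9 clusters contained the transcript, at 424 to 725 CPM.

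*Aldh1a3* was close to absent at this depth. All named nuclei together held 95 of its UMIs, 45 in fibroblasts and 16 in endothelial cells. Its level was 4.12 ± 2.34 CPM in fibroblasts and 10.2 ± 5.76 CPM in endothelial cells (SD, n = 8), against at most 1.21 CPM in droplets without a nucleus. No test was made of it, since it did not pass the filter on low counts.

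The supply side of the pathway was also highest in fibroblasts. *Stra6*, the retinol receptor, reached 90.3 CPM in the lowest, 146 in the median and 224 in the highest fibroblast library, and no library of another tested type passed 64.9 CPM. The log2 fold change was 3.71 ± 0.12 (adjusted p = 6.2e-43), in the direction that the filter on low counts had fixed for *Stra6* and *Rdh10*. Fibroblasts held 65.5% of the *Stra6* UMIs. Endothelial cells came next with 31.7 ± 20.8 CPM, above neurons (1.18 ± 0.44, adjusted p = 0.019) but below the 46.1 to 69.6 CPM of free RNA. *Rdh10*, which makes retinal from retinol, was more evenly spread over the cell types, with 33.7% of its UMIs in OLs, 28.5% in astrocytes and 26.4% in fibroblasts. It ranged from 33.1 over 38.2 to 51.1 CPM in fibroblasts and from 15.9 to 23.7 in astrocytes, and the difference between both types was 0.94 ± 0.12 on the log2 scale (adjusted p = 2.1e-10). OLs, the most numerous nuclei, had 10.5 ± 1.21 CPM of *Rdh10*, within the 10.5 to 16.0 CPM of free RNA.

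*Crabp2*, the carrier of retinoic acid, had levels of 39.2, 52.1 and 61.8 CPM in the lowest, median and highest fibroblast library. Free RNA held at least 33.1 CPM, so the fibroblast levels stood close to it, at 0.98 to 1.56 times the free RNA of the same library, and above it in 7 of 8 libraries. Every other tested type averaged under 10 CPM, below free RNA. The log2 fold change for fibroblasts was 2.98 ± 0.16 (adjusted p = 3.4e-29), in the direction that the filter on low counts had fixed.

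*Cyp26b1*, the degrading enzyme, was called higher in fibroblasts and in endothelial cells. Fibroblasts ranged from 14.4 over 40.7 to 90.8 CPM and endothelial cells from 0 over 23.0 to 112 CPM, so the types overlapped. They differed by a log2 fold change of 0.85 ± 0.35 (adjusted p = 0.038), and the endothelial levels rested on 39 UMIs in 411 nuclei. *Cyp26b1* had passed the filter on low counts only through fibroblasts. Free RNA held 6.58 to 27.1 CPM of *Cyp26b1*, and fibroblasts stood above that of their own library in 8 of 8 libraries and endothelial cells in 4 of 8. The highest endothelial value came from replicate 10 labelled cKO, without which the endothelial mean was 17.7 CPM in place of 29.5. The lowest fibroblast level was in control replicate 1 and the highest in control replicate 3. In endothelial cells, 2 of the 7 members were called higher than in the mean of the other types, *Cyp26b1* (2.16 ± 0.44, adjusted p = 4.7e-05) and *Stra6* (1.12 ± 0.36, adjusted p = 0.0095), where 18.5% of all genes were called higher. The 10 fibroblast markers summed to 553 to 3079 CPM in endothelial cells, with at most 2 of them at 0 in a library, and their part in these differences was not tested. With the control libraries alone *Cyp26b1* lost the call (1.57, adjusted p = 0.063), and with the libraries labelled cKO alone *Stra6* lost it (0.94, adjusted p = 0.12).

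*Rarb*, the receptor, had its highest levels in astrocytes and fibroblasts. Astrocytes had 233 CPM in the lowest, 286 in the median and 337 in the highest library, fibroblasts 183, 218 and 265, and OPCs 93.5, 137 and 193. The step from astrocytes to fibroblasts was 0.44 ± 0.12 and that from fibroblasts to OPCs 0.44 ± 0.16 on the log2 scale, both under the size required for a call (adjusted p = 0.00081 and 0.014). Neurons followed with 97.7 ± 64.0 CPM, in which control replicate 4 and the libraries labelled cKO replicates 11 and 13 lay between 167 and 184 and the other 5 libraries between 41.3 and 74.4. The paper proposes that the neurons of its optic nerve data likely came from brain tissue beside the nerve, caught in dissection. The part of this in the spread of the neuron levels was not tested. OLs held 5.07 ± 1.61 CPM, below the 16.3 to 31.1 CPM of free RNA. Hence the 8139 astrocyte nuclei carried 66.8% of the *Rarb* UMIs and the 19369 OL nuclei 2.47%. The share of nuclei with a UMI was 49.2% in astrocytes and 1.28% in OLs, and 23.5% and 0.56% after thinning. All 9 astrocyte clusters contained *Rarb*, at 172 to 375 CPM.

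Outside fibroblasts, *Rarb* and *Aldh1a1* were the members called higher in astrocytes and in OPCs. In astrocytes 2 of 7 members were called higher than in the mean of the other types, *Rarb* by 2.94 ± 0.11 and *Aldh1a1* by 2.80 ± 0.11 (adjusted p = 4.5e-39 and 9.3e-39), where 23.6% of genes were called higher, a share near that of the members. *Cyp26b1* (-1.32), *Aldh1a2* (-0.70) and *Stra6* (-0.62) were 3 of 7 called lower in astrocytes, against 18.1% of all genes. *Stra6* changed sign there without replicate 11 labelled cKO (0.13), after thinning (0.060) and with control libraries alone (0.14), and *Aldh1a2* after thinning (0.13). The same genes as those raised in astrocytes were 2 of 7 called higher in OPCs, by 1.96 ± 0.18 and 2.13 ± 0.14, with a background of 20.7%. In neurons *Rarb* alone was called higher (1.17 ± 0.20, adjusted p = 2.9e-07), 1 of 7 at a background of 23.3%, and *Aldh1a1* alone lower (-1.49), at a background of 18.9%. *Rarb* and *Aldh1a1* were also the 2 of 7 members called lower in myeloid cells (-1.93 and -1.02, background 23.2%) and in T cells (-1.78 and -1.54, background 9.88%). In myeloid cells the share of the members was near the background. The T cell calls rested on 11 and 30 UMIs in 177 nuclei. In both types the mean levels of both genes were within or below those of free RNA. In committed OPCs 4 of 7 were called lower, *Aldh1a1* (-1.96), *Aldh1a2* (-1.96), *Rdh10* (-1.67) and *Rarb* (-1.34), at a background of 10.8%. These calls rested on 28, 6, 4 and 19 UMIs in 130 nuclei, at mean levels no higher than free RNA. The lower calls of *Cyp26b1*, *Stra6* and *Rdh10* outside fibroblasts are fixed in part by the filter, which these genes passed only through fibroblasts. In OLs 4 of 7 members were called lower, *Rarb* (-3.38 ± 0.27), *Cyp26b1* (-0.97), *Aldh1a1* (-0.93) and *Stra6* (-0.56), where 23.2% of all genes were called lower. Astrocytes and OLs held *Stra6* and *Cyp26b1* at levels below free RNA, and the *Stra6* difference of OLs changed sign without replicate 11 of the libraries labelled cKO (0.30), after thinning (0.039) and with control libraries alone (0.13).

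**Figure D2:**
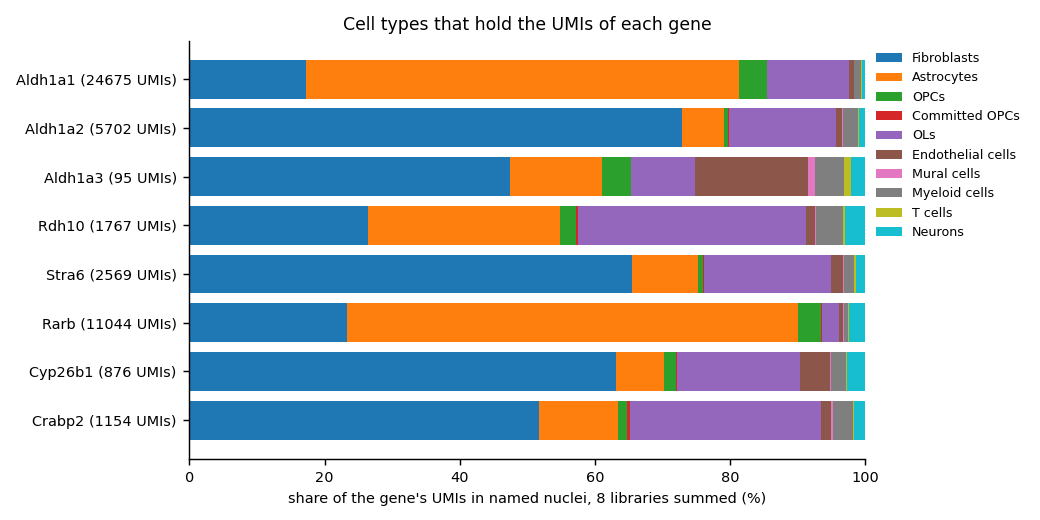
Share of each gene's UMIs in named nuclei (horizontal axis, percent, all 8 libraries summed) held by each cell type, with the number of UMIs beside the gene. Fibroblasts hold most UMIs of *Aldh1a2*, *Stra6*, *Cyp26b1* and *Crabp2*, and astrocytes most of *Aldh1a1* and *Rarb*.

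Other genes of retinoid handling followed the set into fibroblasts in part. Of a list of 47 such genes, 27 could be tested, and 13 were called higher and 6 lower in fibroblasts than in the mean of the other types. Over all genes 22.3% were called higher and 22.1% lower, so the lower share of the list was near the background. The filter bears on these counts as on those of the members. The largest rises were in *Rbp4*, the retinol carrier of the blood (3.42 ± 0.12, adjusted p = 3.8e-40), and *Nr2f2*, a nuclear receptor gene that answers to retinoic acid (3.06 ± 0.09, adjusted p = 5.3e-47). *Dhrs3*, which turns retinal back into retinol, rose by 2.09 ± 0.14 and the receptor *Rarg* by 1.84 ± 0.12. *Nr2f1*, *Zbtb16* and the coactivator *Ncoa3* rose by 1.76, 1.55 and 0.84. *Nav2* and *Meis1*, also known to respond to retinoic acid, were lower in fibroblasts (-1.84 ± 0.10 and -1.39 ± 0.13). Of the 10 listed responsive genes, 8 were tested, of which 5 were called higher and 3 lower.

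Fibroblasts of the ON were then divided by *Adamtsl3*, which encodes a protein of the extracellular matrix. The 3248 fibroblast nuclei fell into 10 subclusters formed without *Adamtsl3* and the 8 genes, and 4 subclusters with 988 nuclei had an *Adamtsl3* level of at least 0.25 of the highest subcluster. The nearest subclusters on either side of this limit stood at 0.48 and 0.015, and the other 2260 nuclei were *Adamtsl3*-. A list of 4 markers of dural fibroblasts was at a median of 0.67 to 0.86 of its highest level in the *Adamtsl3*+ subclusters and at most 0.17 in the *Adamtsl3*- ones. The pial list was highest in subclusters 0 and 1 (0.62 and 0.64), both *Adamtsl3*-. The share of *Adamtsl3*+ nuclei was 28.9%, 31.6%, 33.7% and 34.0% in the control libraries and 25.8%, 26.4%, 36.3% and 27.8% in the libraries labelled cKO, a difference that did not pass an exact permutation test (two-sided p = 0.31).

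The *Adamtsl3*+ fibroblasts held much less of the synthesis and degradation genes. *Stra6* and *Rarb* stood above the free RNA of the same library in all 8 libraries of both classes. Within the *Adamtsl3*+ class, *Stra6* was high in subcluster 4 and low in the other subclusters, as given below. *Crabp2* stood above the free RNA of its library in 7 of 8 libraries of the *Adamtsl3*- class and in 5 of 8 of the *Adamtsl3*+ class. In the latter it was at 0.53 to 1.26 times free RNA, which was estimated at 8.78% to 15.4% of the UMIs there. The part of free RNA in this level was not tested. Of 7 members tested, 4 were called lower in *Adamtsl3*+ nuclei, where 15.3% of all 9646 genes were called lower. Of these 4, *Aldh1a2*, *Rdh10* and *Cyp26b1* passed the filter on low counts only through the *Adamtsl3*- class and so had to be lower in the other, whereas *Aldh1a1* passed it in either class. No member was called higher, against 12.9% of all genes. The 10 fibroblast markers moved the same way, at 5694 to 8118 CPM in *Adamtsl3*+ and 21778 to 32534 CPM in *Adamtsl3*- nuclei, with none at 0 in a library, and their part in the differences of the members was not tested. Cluster 19, which was led by genes including *Adamtsl3*, held the fibroblast list at a median of 0.086 of its highest level and the OL list at 0.127, and it was named through a list of a fibroblast layer.

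**Figure D3:**
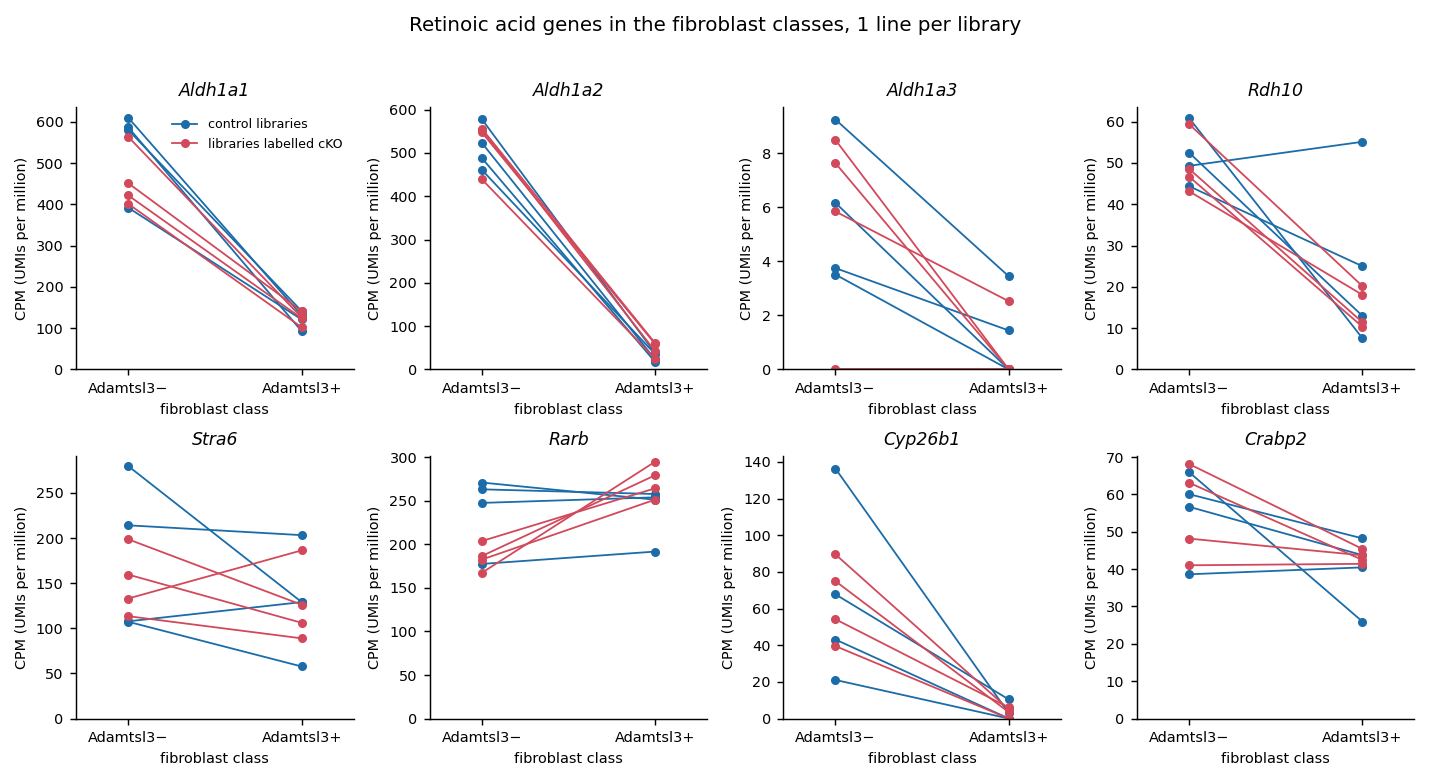
CPM of each gene (vertical axis) in *Adamtsl3*- and *Adamtsl3*+ fibroblasts, with a line for each library (blue, control libraries; red, libraries labelled cKO). *Aldh1a1*, *Aldh1a2* and *Cyp26b1* fall in all 8 libraries, *Rdh10* in 7, and *Rarb* shows no such fall.

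*Aldh1a2* was lower in the *Adamtsl3*+ class in all 8 libraries. The filter on low counts had fixed this direction, so its p-value is given as a description. In *Adamtsl3*- fibroblasts the control libraries had 461, 488, 523 and 578 CPM and the libraries labelled cKO 547, 556, 554 and 439. In *Adamtsl3*+ fibroblasts the same libraries had 35.4, 17.2, 23.1 and 37.5, and 58.7, 60.5, 42.2 and 24.5 CPM. The classes did not overlap, the log2 fold change was -3.76 ± 0.13 (SE, 8 libraries, edgeR adjusted p = 4.3e-20), and all *Adamtsl3*+ values lay below those of free RNA.

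*Aldh1a1* was 392 CPM in the lowest, 508 in the median and 610 in the highest *Adamtsl3*- library. In *Adamtsl3*+ fibroblasts it was 93.0, 125 and 142 CPM, a difference of -1.91 ± 0.10 (edgeR adjusted p = 4.3e-16). The *Adamtsl3*+ levels were 0.34 to 0.63 times the free RNA of the same library. As with *Aldh1a2*, these are levels below free RNA, which was estimated at 8.78% to 15.4% of the UMIs of this class. *Cyp26b1* was 21.1, 61.0 and 136 CPM in *Adamtsl3*- fibroblasts and 0, 3.17 and 10.4 CPM in *Adamtsl3*+ fibroblasts, where it rested on 14 UMIs (-4.10 ± 0.28, adjusted p = 5.2e-13). *Rdh10* was lower by a smaller step, from 50.6 ± 6.56 to 20.1 ± 15.3 CPM (SD, n = 8; -1.36 ± 0.22, adjusted p = 8.0e-06). The *Adamtsl3*+ level of *Rdh10* in control replicate 2 was 55.1 CPM, inside the range of the *Adamtsl3*- class. The filter on low counts had fixed the direction for *Cyp26b1* and *Rdh10*.

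*Stra6* was 107 to 280 CPM in *Adamtsl3*- and 57.7 to 203 CPM in *Adamtsl3*+ fibroblasts, and was higher in the *Adamtsl3*- class in 6 of 8 libraries (-0.32 ± 0.13, adjusted p = 0.049). *Crabp2* was 55.2 ± 11.3 and 41.4 ± 6.69 CPM (-0.38 ± 0.15, adjusted p = 0.047). *Rarb* was 212 ± 41.6 and 256 ± 30.05 CPM (0.36 ± 0.09, adjusted p = 0.0026). All 3 differences were under the size required for a call. With the libraries labelled cKO alone the *Rarb* difference passed it (0.63, adjusted p = 0.00010).

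Among the other retinoid genes, 25 were tested between the classes, and 3 were called higher and 9 lower in *Adamtsl3*+ fibroblasts. The shares over all genes were 12.9% and 15.3%, and the 3 higher genes were near the first. The filter on low counts bears on these counts and directions as on those of the members. Which of the listed genes passed it only through a single class was not examined. *Zbtb16* (1.70 ± 0.10), *Nr2f1* (1.04 ± 0.11) and the receptor partner *Rxra* (1.00 ± 0.16) were higher. *Rbp4* (-2.78 ± 0.21) and *Tgm2*, a known retinoic acid target (-2.37 ± 0.27), were lowest, and the others included *Rarres2* (-1.47), *Nav2* (-1.40), *Nr2f2* (-1.07) and *Ncoa1* (-0.66). Of the 7 responsive genes tested, 2 rose and 5 fell. *Dhrs3*, *Rara* and *Rarg* were not called, at 0.23, -0.06 and 0.17.

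The subclusters resolved the pathway further. *Stra6*, *Rdh10*, *Aldh1a1* and *Aldh1a2* had their highest means in the same subcluster, and *Cyp26b1*, *Crabp2* and *Rarb* had theirs in others. Subcluster 1 (468 nuclei, *Adamtsl3*-) was highest for *Aldh1a1* (959 ± 97.8 CPM), *Aldh1a2* (721 ± 128) and *Stra6* (416 ± 97.3), had *Rdh10* at 85.9 ± 39.6, a level within the spread of that in subcluster 0, and had little *Cyp26b1* (8.89 ± 4.57, SD, n = 8 libraries each). Subclusters 2 and 3 had a comparable amount of *Aldh1a2* (698 ± 89.4 and 579 ± 121 CPM) with little *Stra6* (33.9 ± 19.1 and 11.7 ± 7.31) and the highest *Cyp26b1* (131 ± 75.6 and 134 ± 119, n = 8 and 7). Here the genes for making and for degrading retinoic acid were present in the same subclusters. Subcluster 10 held *Aldh1a2* at 557 ± 112 CPM with *Stra6* at 2.82 ± 6.92 (n = 6), 1 UMI in 114 nuclei.

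Subcluster 0 had *Aldh1a1* (696 ± 87.5 CPM) and *Rdh10* (81.5 ± 28.9) with less *Aldh1a2* (180 ± 47.9) and the lowest *Crabp2* (13.4 ± 8.66). Subcluster 6 had *Stra6* (283 ± 91.3) with *Aldh1a2* at 120 ± 28.9 and *Aldh1a1* at 100 ± 55.5. Free RNA held 81.2 to 122 CPM of *Aldh1a2* and 191 to 337 CPM of *Aldh1a1*. Among *Adamtsl3*+ subclusters, subcluster 4 differed from the rest by *Stra6* (254 ± 68.4, n = 8, against 12.0 to 40.6 in the other 3) and by the highest *Rarb* of any subcluster (336 ± 27.7). When the limit was set at 0.5, which moves subcluster 4 to the other class, *Stra6* and *Crabp2* were called lower in *Adamtsl3*+ fibroblasts as well (-2.57 and -1.11, adjusted p = 7.1e-14 and 5.9e-05). The *Rarb* means of the 10 subclusters spanned 142 to 336 CPM, a ratio of 2.36. Those of *Aldh1a2* spanned 12.3 to 721 CPM, where the lowest rested on 9 UMIs. Those of *Stra6* spanned 11.7 to 416 CPM over 9 subclusters, besides subcluster 10 with 1 UMI. Subclusters are described and were not tested against each other.

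**Figure D4:**
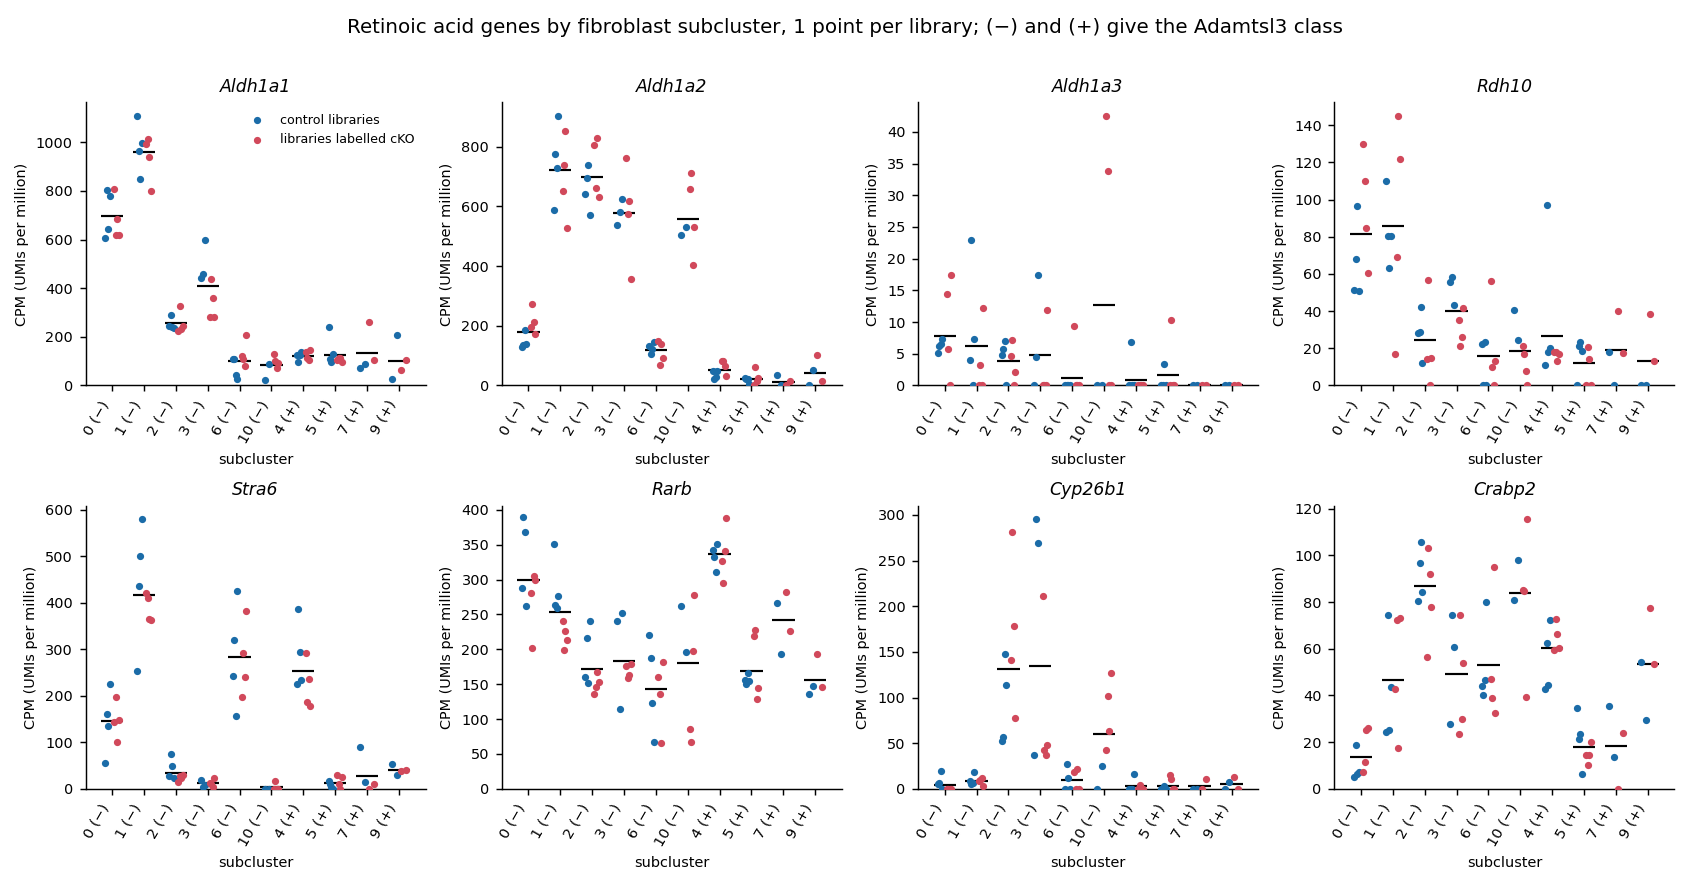
CPM of each gene (vertical axis) in 10 fibroblast subclusters, marked (−) or (+) for their *Adamtsl3* class, with 1 point per library and a bar at the mean. *Aldh1a2* is high in subclusters 1, 2, 3 and 10, *Stra6* in 1, 6 and 4, and *Cyp26b1* in 2, 3 and 10.

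The composition of fibroblasts differed between libraries and moved with these levels. Subcluster 3 made up 22.9% of the fibroblasts of control replicate 3 and 18.9% of those of replicate 12 labelled cKO, against 3.07% to 11.7% elsewhere, and subcluster 1 made up 7.93% and 9.88% of them, against 13.1% to 18.8% elsewhere. Subcluster 7, with *Aldh1a1* at 132 ± 87.5 CPM and *Stra6* at 28.25 ± 40.85 CPM (SD, n = 4), made up 16.9% of the fibroblasts of replicate 12 labelled cKO, against 1.35% to 6.91% elsewhere. Control replicate 3 and replicate 12 labelled cKO had the lowest fibroblast levels of *Aldh1a1* (299 and 282 CPM) and *Stra6* (90.3 and 104 CPM). The part of these shares in the levels was not tested.

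Over the 19 named cell types and fibroblast subclusters, the genes whose log2(CPM + 1) in control libraries was most like that of a member were found among 17716 genes. Pearson's r is given as a description, since the points share libraries. *Aldh1a2* was most like *Marchf6* (0.93), *Ranbp3l* (0.93) and *Slc13a4* (0.92), and *Cyp26b1* was most like the retinol carrier *Rbp4* (0.89), *Moxd1* (0.84) and *Slc16a12* (0.82). *Stra6* was most like *Lbp*, *Gm15675* and *Pthlh* (0.92, 0.89 and 0.86), and *Rarb* like *Zfp423*, *Sulf1* and *Tead1* (0.94, 0.92 and 0.92). *Crabp2* was most like *Pgrmc1*, *Ogn* and *Prdm6* (0.93, 0.92 and 0.92), *Rdh10* like *Psmc4*, *Sf3b4* and *Fgd1* (0.90, 0.90 and 0.87), and *Aldh1a1* like *A730056A06Rik*, *Col5a3* and *D630003M21Rik* (0.83, 0.79 and 0.79). No member was among the 3 genes nearest to another member. The nearest pair of members was *Aldh1a2* and *Crabp2* (0.74).

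The comparison of genotypes asked whether the libraries labelled cKO differed from control libraries in these genes. Over all types and classes 39 tests of a member were made, and 1 was called. In the types and classes where a member was tested, 0% to 0.264% of all genes were called. In fibroblasts 0 of 7 members were called, and the log2 fold changes lay between -0.18 for *Aldh1a1* and 0.08 for *Aldh1a2*. edgeR called 0% of 11973 genes in fibroblasts, 458 genes had an unadjusted p under 0.05, and DESeq2 called 3. In *Adamtsl3*+ fibroblasts 0 of 5 members were called (0% of 7698 genes, 375 at an unadjusted p under 0.05), and in *Adamtsl3*- fibroblasts 0 of 7 (0% of 10815 genes, 402 at an unadjusted p under 0.05). In OLs, which like OPCs are cells of the *Olig2* lineage, 0 of 7 members were called at a background of 0.0763%. The log2 fold changes ran from -0.54 for *Rarb* to 0.43 for *Stra6*.

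**Figure D5:**
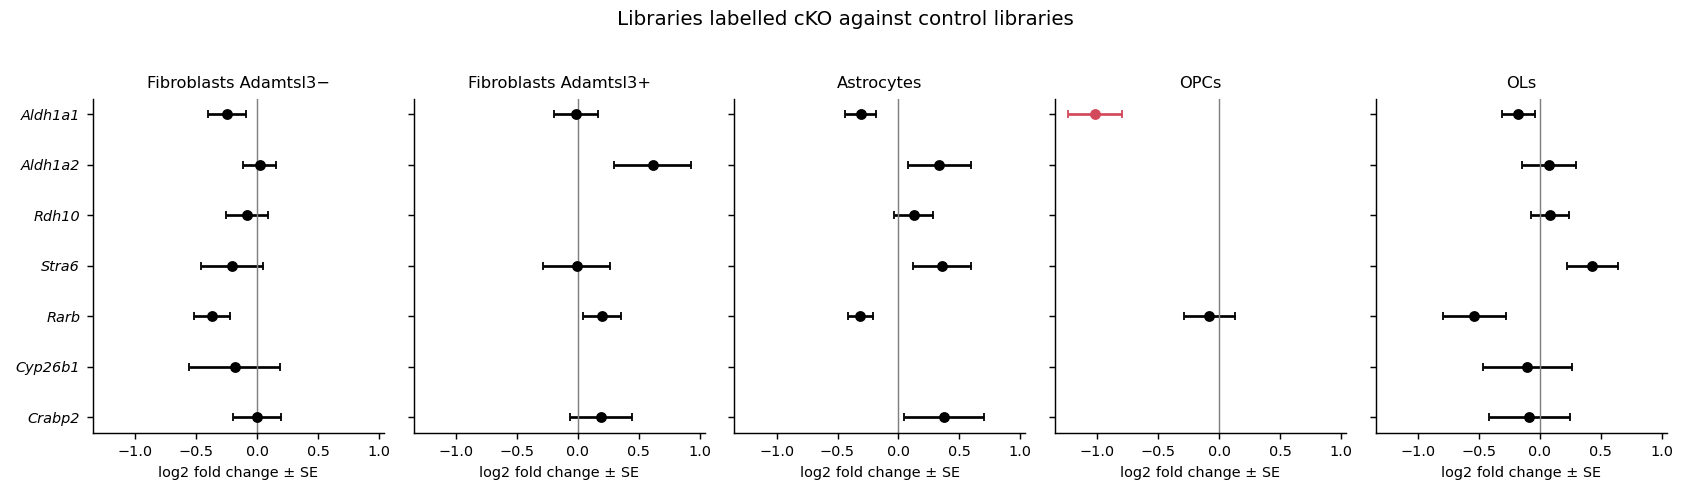
Log2 fold change of the libraries labelled cKO against control libraries (horizontal axis, point and SE) for each tested member in both fibroblast classes, astrocytes, OPCs and OLs. *Aldh1a1* in OPCs, in red, is the difference that passed the test.

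The call was for *Aldh1a1* in OPCs, where 2 members were tested. The control libraries had 690, 606, 302 and 465 CPM and the libraries labelled cKO 325, 286, 137 and 282 CPM, in 59 to 121 OPC nuclei per library. The groups overlapped, since control replicate 3 lay below replicate 10 labelled cKO. The log2 fold change was -1.02 ± 0.22 (SE, 4 against 4 libraries, edgeR adjusted p = 0.037), and 14 of 6457 genes (0.217%) were called in OPCs. The call was lost when any 1 library other than control replicate 3 was left out (adjusted p 0.056 to 0.33 in these 7 fits, 0.0076 without control replicate 3) and with DESeq2 (adjusted p = 1), while the log2 fold change stayed between -1.24 and -0.82 in these fits and after subtraction of free RNA. That subtraction also ended the call (-1.24, adjusted p = 0.13). The call was kept without a filter on low counts (-1.01, adjusted p = 5.7e-07) and in nuclei thinned to equal depth (-0.97, adjusted p = 0.039). Free RNA held 337, 274, 191 and 281 CPM of *Aldh1a1* in the control libraries and 288, 207, 203 and 244 CPM in the others. The summed level of 7 astrocyte markers in OPCs was 773 to 982 CPM in the control libraries and 845 to 914 CPM in the libraries labelled cKO, and no marker was at 0 in any library. The list of 10 fibroblast markers in OPCs was at 482 to 2040 CPM in control libraries and 454 to 1378 CPM in the others. The 6 pituitary genes in OPCs were at 41.1 to 932 CPM in the control libraries and at 0 to 7.94 CPM in the libraries labelled cKO, without overlap. The part of these RNAs in the difference was not tested beyond the subtraction. *Rarb* in OPCs was not called (-0.08 ± 0.21, adjusted p = 0.97).

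In astrocytes 0 of 6 members were called at a background of 0% of 14345 genes (edgeR, 1078 genes at an unadjusted p under 0.05, 12 genes called by DESeq2). *Rarb* was 337, 292, 311 and 333 CPM in the control libraries, against 248, 233, 280 and 269 CPM under the cKO label. The groups did not overlap, but the difference failed the correction (-0.31 ± 0.10, unadjusted p = 0.0098, edgeR adjusted p = 0.58). *Aldh1a1* was 738, 761, 659 and 581 CPM against 497, 481, 618 and 621 CPM, with overlapping groups (-0.31 ± 0.13, adjusted p = 0.64).

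In *Adamtsl3*- fibroblasts *Rarb* was 263, 271, 178 and 248 CPM in the control libraries and 187, 167, 183 and 204 CPM in the libraries labelled cKO (-0.37 ± 0.15, adjusted p = 0.999), with control replicate 3 inside the range of the other group. In *Adamtsl3*+ fibroblasts it was 258, 251, 192 and 254 against 280, 295, 252 and 264 CPM (0.20 ± 0.15, adjusted p = 0.99). *Adamtsl3*+ subcluster 5, with *Rarb* at 168 ± 35.8 CPM against 336 ± 27.7 CPM in subcluster 4, made up 11.8% of control fibroblasts and 7.05% of those under the cKO label on average (exact permutation test, two-sided p = 0.0571, adjusted over 10 subclusters 0.571), and its part in this difference was not tested. The difference between these differences was 0.55 ± 0.16 on the log2 scale (unadjusted p = 0.0023, adjusted p = 0.80). None of the 7 members was called for such an interaction, where 3 of 10739 genes (0.0279%) were.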

How the data were processed

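Single-nucleus libraries were made from ON nuclei with a 10x 3′ droplet kit, and each pooled 6 nerves. The authors counted UMIs with Cell Ranger 7.0.0 on GRCm39, as the submitters' processing notes give, and the deposited values are raw counts per gene and barcode for every barcode, without normalization or removal of free RNA. Cell Ranger's call of nuclei was repeated (8000 expected nuclei, simulations at a false discovery rate of 0.01), followed by limits of 200 genes, 5% mitochondrial counts and 5 or 3 median absolute deviations, and 2.87% to 5.24% of nuclei per library with the largest share of simulated doublets among their neighbours were removed (0.8% per 1000 nuclei), which leaves some doublets.

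Nuclei were clustered (3000 variable genes, 30 components, 15 neighbours, Leiden resolution 3, leidenalg 0.10.2) without the 8 genes, *Piezo1*, *Piezo2*, *Olig2*, *Cspg4*, *Adamtsl3* and *Ranbp3l*, and 41 of 55 clusters were named by marker lists. Fibroblasts were subclustered at resolution 1. Of their subclusters, 5 with 444 nuclei held markers of another type at 0.25 or more of that type's own level at over 1.3 times the usual UMIs and were left out as mixtures. The rules for naming and for mixtures were set after the clusters were seen.

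Counts were summed per library and type (at least 10 nuclei and 1000 counts) and tested with edgeR 4.0.16 (TMM, filterByExpr, glmQLFit and glmQLFTest) in R 4.3.3. Each type was set against the mean of the other types and *Adamtsl3*+ against *Adamtsl3*- fibroblasts with the library as a block, and genotypes were compared within types without a block. Mural cells had too few sums for the test between types. A gene was called at a Benjamini-Hochberg adjusted p under 0.05 over all genes of a comparison and an absolute log2 fold change over 0.5. SEs were derived from the F statistic. Alternatives were DESeq2 1.42.0, no filter, each library left out, subtraction of free RNA, thinning to 1000 UMIs, no block, each genotype alone and other *Adamtsl3* limits. The scripts were tested on simulated data. Intervals from the number of UMIs or nuclei would cover counting error only.

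The rule for named genes takes the 8 genes, with the called genes of the retinoid list (at most 10 by adjusted p) and, per member, the 3 genes with the most similar pattern. A gene of the retinoid list that this rule names is not reported here. Genes, lists and comparisons were chosen with earlier results of these data known. The labels do not say whether mice of different libraries were independent beyond their pools, and the clusters come from the same nuclei, so p-values measure the spread between these libraries. In such counts fewer transcripts per nucleus and a smaller share of a subtype within a type cannot be told apart.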

Additional observations from a re-analysis of the deposited data

Results flagged for a closer look

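Within groups of 4 libraries, 94 sets of values of a member in a cell type or class were searched for a library far from the other 3, and 10 were found. Chance gives about 1 in 20 for separate sets of normally distributed values. Some of these sets overlap, since all fibroblasts are the sum of both classes, so the share found cannot be read against that rate. Control replicate 3 was far from the other control libraries in 5 of the 10. It was low for *Aldh1a1* in all fibroblasts (299 CPM) and in *Adamtsl3*- fibroblasts (392 CPM) and for *Rarb* in *Adamtsl3*+ fibroblasts (192 CPM), and high for *Aldh1a2* in neurons (20.7 CPM) and for *Cyp26b1* in astrocytes (6.06 CPM). Replicate 13 labelled cKO was far from its group for *Aldh1a2* in 3 sets, high in astrocytes (25.5 CPM) and endothelial cells (64.3 CPM) and low in *Adamtsl3*- fibroblasts (439 CPM). Replicate 11 labelled cKO was high for *Rdh10* in OPCs (37.1 CPM), and control replicate 4 was high for *Rarb* in neurons (184 CPM).

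Members were also found in unnamed nuclei at levels above those of every library of a named type, and these values belong to no comparison. Cluster 40, with 167 nuclei and too few UMIs per nucleus to be named (0.33 of the usual depth), raised 6 fibroblast markers and held *Aldh1a1* at 890 CPM, *Aldh1a2* at 727 CPM and *Stra6* at 317 CPM. Cluster 22, with 631 nuclei, was led by *Aox2*, *Cyp2g1* and *Cyp2a5*, and raised 5 markers of the list for photoreceptors and retinal glia. It had 0.24 of the usual depth and held *Crabp2* at 78.1 CPM in 42 UMIs, where the highest level in free RNA was 50 CPM.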

How the results depend on the processing

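The main values of 14 results were repeated under 194 alternatives, of which 157 stayed within the limits set for a change. The number of members called higher in fibroblasts fell from 7 to 4 and that called lower in *Adamtsl3*+ fibroblasts from 4 to 2 after thinning to 1000 UMIs, because *Rdh10*, *Cyp26b1* and *Crabp2* then no longer passed the filter on low counts. Members called higher in endothelial cells were 0 after thinning, 1 with control libraries alone and 1 with libraries labelled cKO alone. *Rarb* made the count of members higher in *Adamtsl3*+ fibroblasts 1 in the libraries labelled cKO alone. Genes called between classes were 2720, and 1421 after thinning. Members called by genotype were 0 with DESeq2, 0 after subtraction of free RNA and 0 to 1 with a library left out.

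Genes called by genotype in fibroblasts were 3 with DESeq2, 44 without a filter and 2 after thinning. In *Adamtsl3*+ fibroblasts they were 27 without a filter and 0 to 5 with a library left out, and in *Adamtsl3*- fibroblasts 3, 40 and 2 as in all fibroblasts and 0 to 2 with a library left out. In astrocytes they were 12, 9 and 1, and 0 to 4 with a library left out. In OPCs they were 29 without a filter, 2 after subtraction of free RNA and 3 to 16 with a library left out. The cause of these changes was not tested.

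For single genes, 825 of 886 alternatives kept the result, called or not called, 51 lost a call and 3 gained one. In 7 the sign of a called result changed. A change of sign between values that were both uncalled was counted as kept. These 7 changes of sign concerned levels below free RNA, and the call was lost in each. They were *Aldh1a2* in astrocytes after thinning (0.13), *Stra6* in astrocytes after thinning (0.060), with control libraries alone (0.14) and without replicate 11 labelled cKO (0.13), and *Stra6* in OLs in the same settings (0.039, 0.13 and 0.30). With each library left out in turn *Stra6* ranged from -0.68 to 0.13 in astrocytes and from -0.65 to 0.30 in OLs. Fits without the library as a block changed none of the calls of members by type or class. No paired analysis was possible because the genotypes share no replicate numbers. Few UMIs limit *Aldh1a3* everywhere and *Cyp26b1* in endothelial cells.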

Other observations

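*Olig2*, the gene that carries the Cre, was counted in OLs at 23.7, 31.6, 40.1 and 27.6 CPM in the control libraries. Under the cKO label it was at 43.8, 51.8, 49.1 and 43.9 CPM. The groups did not overlap, with the higher values under the cKO label, and the difference failed the correction (log2 fold change 0.60 ± 0.14 SE, edgeR adjusted p = 0.22).

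Among the 15 clusters of OLs, cluster 41 (156 nuclei, led by *Ndnf* and *Cyp26b1*) had *Cyp26b1* at 31.1 CPM, on 24 UMIs from 5 libraries, against 1.34 to 4.08 CPM in the other OL clusters. Free RNA held 6.58 to 27.1 CPM of *Cyp26b1*. The cluster had 1.34 times the usual UMIs per nucleus, and *Rbp4* and *Tpm2* were also among its leading genes. Of the lists of other cell types its highest was that of astrocytes, at a median of 0.098 of the highest level of each marker. It held the OL list at 0.748, against 0.898 to 0.961 in the other OL clusters. The part of RNA from other types in its *Cyp26b1* level was not tested.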
